A study of Mus musculus with 10 samples.

Results

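The mitosis genes described here are 51 genes of the machinery that enters, runs and ends cell division, followed over 10 Affymetrix mouse arrays of splenic CD4+ T cells. The rule is a list of names and uses no measured difference, and each was read from 1 probe set, the one of highest mean level across all 10 arrays among those naming no other gene. Of the 51 genes, 49 had such a probe set, out of 17097 genes in all, and Ccnb1 and Nuf2 had none here. All cells came from DBA/1 mice, an inbred strain, and were pooled over several animals before sorting. The CD49b+ group (3 arrays) held CD4+ cells positive for the integrin subunit CD49b, and the CD25+ group (3 arrays) held CD4+ cells carrying the interleukin 2 receptor alpha chain. Both were sorted from mice that had received 500000 immature dendritic cells intraperitoneally in repeated injections, 7, 5 and 3 days before sacrifice. A further group held CD4+ cells of such injected mice (2 arrays), and the fourth held CD4+ cells of naive mice, which received no dendritic cells (2 arrays). Whether CD49b+ and CD25+ cells had been removed from these CD4+ cells is not stated in the labels. The labels do not say that replicates came from separate pools, so the p-values reflect only how these arrays scatter, and that scatter may be technical. The study compared injected with naive mice and each sorted subset with other cells of injected mice.

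Cell division is driven by Cdk1 bound to cyclins A and B, which activates kinases that build the spindle, attach chromosomes to it and separate them. A checkpoint holds back the anaphase-promoting complex (APC/C) until every chromosome is attached, and that complex then marks cyclins and other proteins for destruction. Most of these genes are transcribed late in the cell cycle and are low in resting cells, so that in T cells their RNA is widely used as a sign of proliferation.

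Promoters of such genes are known for CCAAT boxes, which the factor NF-Y binds, and for the cell cycle genes homology region, with the letters TTTGAA, which the DREAM and MuvB complexes bind. RefSeq windows on GRCm38.p6, from 250 bases before to 50 after the annotated start, were at hand for 42 of the 51 genes. CCAAT, read on both strands, stood in 32 of the 42 (76.2%), against 41.1% of the windows of 27025 genes. TTTGAA, also read on both strands, stood in 32 of the 42 (76.2%), against 20.2% of those genes. The strings can overlap by at most an end base, and both were found for 27 of the 42 (64.3%), against 7.97% of those genes. Among 37 genes of DNA replication, CCAAT stood in 64.9%, but TTTGAA in 13.5%. The windows of Birc5, Mad2l1, Melk, Nuf2 and Nusap1 held neither string. The 150 bases before the start are printed for 5 genes that were higher in both sorted subsets and for Kif15, which differed in the other direction; CCAAT or ATTGG and TTTGAA or TTCAAA are in capitals, 5′ to 3′ on the gene's strand. The stretches are chr2:164769779-164769928 (plus strand) for Ube2c, chr10:69352913-69353062 (minus) for Cdk1, chr4:118437344-118437493 (minus) for Cdc20, chr11:99024190-99024339 (minus) for Top2a, chr7:135716380-135716529 (minus) for Mki67 and chr9:122950931-122951080 (plus) for Kif15.
Ube2c: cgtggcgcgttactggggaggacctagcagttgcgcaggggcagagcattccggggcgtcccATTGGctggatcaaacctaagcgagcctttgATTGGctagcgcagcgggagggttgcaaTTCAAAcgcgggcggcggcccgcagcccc
Cdk1: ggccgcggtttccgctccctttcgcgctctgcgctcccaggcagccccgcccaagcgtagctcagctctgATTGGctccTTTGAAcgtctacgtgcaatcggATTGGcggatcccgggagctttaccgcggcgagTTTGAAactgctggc
Cdc20: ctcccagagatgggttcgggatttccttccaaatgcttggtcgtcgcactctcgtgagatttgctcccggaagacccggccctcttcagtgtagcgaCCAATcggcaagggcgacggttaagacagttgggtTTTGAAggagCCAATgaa
Top2a: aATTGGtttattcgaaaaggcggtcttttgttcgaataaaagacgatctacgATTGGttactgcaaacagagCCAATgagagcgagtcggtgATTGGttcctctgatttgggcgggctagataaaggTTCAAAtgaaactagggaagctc
Mki67: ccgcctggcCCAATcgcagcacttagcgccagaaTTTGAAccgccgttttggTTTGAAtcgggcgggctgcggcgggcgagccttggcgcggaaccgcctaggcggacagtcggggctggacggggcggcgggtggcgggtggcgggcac
Kif15: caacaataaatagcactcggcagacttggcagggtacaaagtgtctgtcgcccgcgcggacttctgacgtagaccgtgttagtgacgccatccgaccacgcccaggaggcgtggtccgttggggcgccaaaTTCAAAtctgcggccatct
The Kif15 stretch holds TTTGAA and no CCAAT, while the other 5 hold both. The windows of Anln, Cdca5, Kif2c and Ndc80 also held TTTGAA and no CCAAT. Those genes were higher in CD49b+ than in CD4+ cells of injected mice. Birc5, Mad2l1, Melk and Nusap1, with neither string, were higher in both subsets. A match describes the letters of the sequence and was not tested as a binding site.

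Mitosis genes were highest in CD49b+ cells, next in CD25+ cells and lowest in CD4+ cells. The median level of the 49 genes was 7.39, 7.80 and 8.27 on the CD49b+ arrays, 6.06, 6.83 and 7.09 on the CD25+ arrays, 4.96 and 5.27 on the CD4+ arrays of injected mice, and 5.41 and 5.45 on those of naive mice. All levels are on the log2 scale, where a step of 1 means 2-fold. The group means ran from CD49b+ through CD25+ and CD4+ of naive mice to CD4+ of injected mice in 43 of the 49 genes, and 4 had the last groups in the other order. Kif15 and Smc4 were the exceptions. In whole sorted samples, more dividing cells and more of this RNA per cell cannot be told apart.

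**Figure D1:**
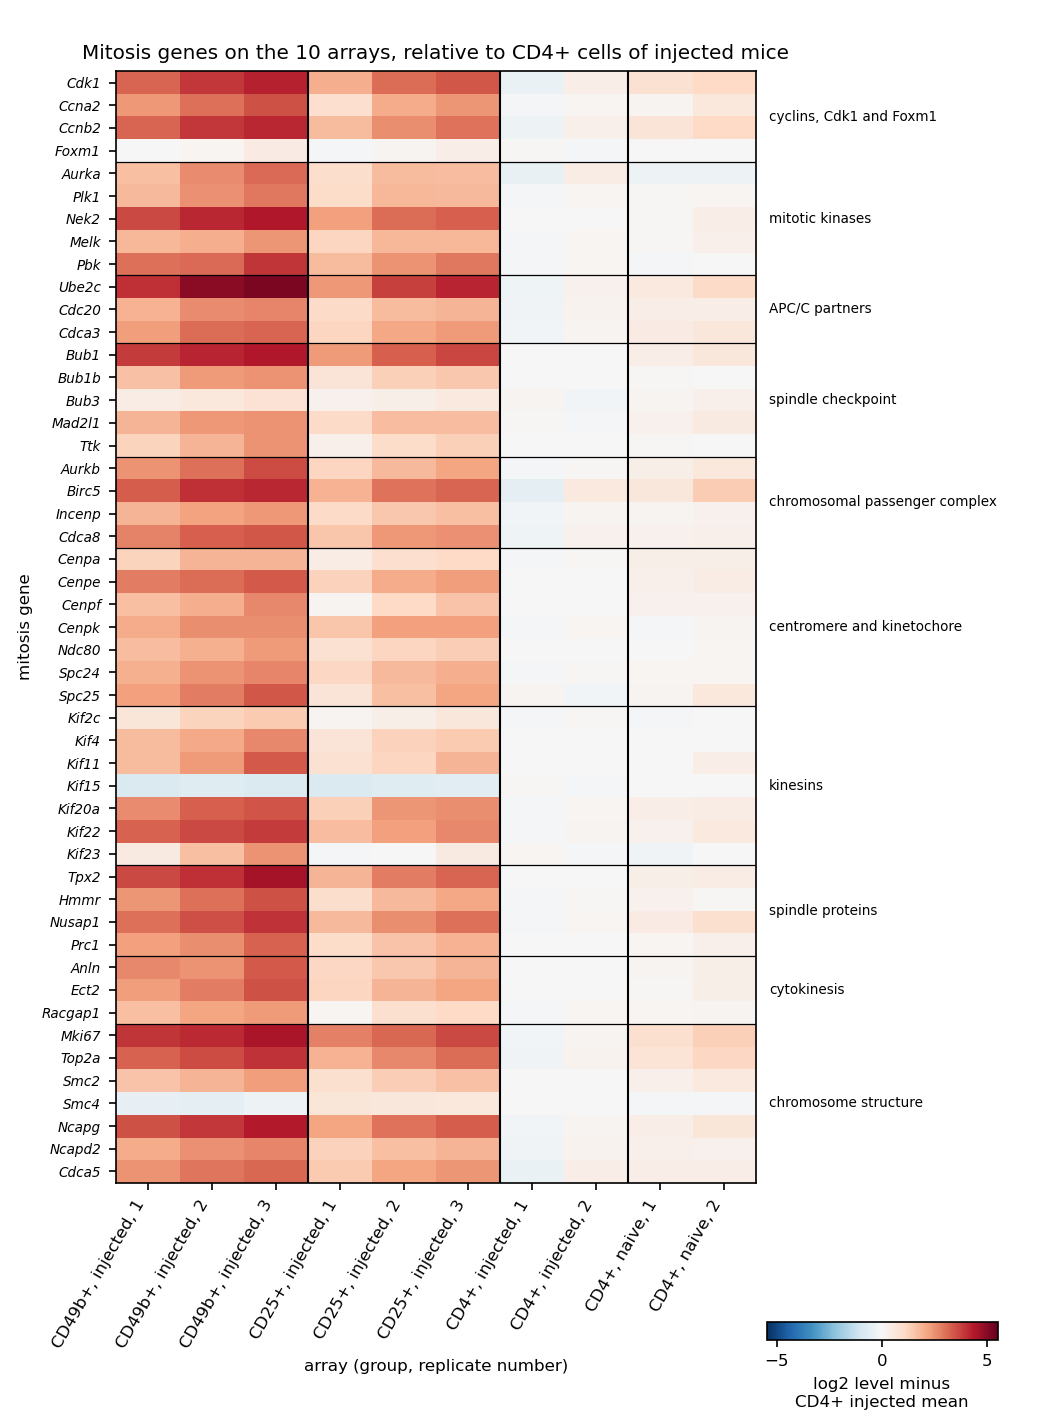
Each row is a mitosis gene, grouped by role, and each column an array, with the log2 level minus the mean of the 2 CD4+ arrays of injected mice as the colour. The subset arrays are red in most rows, every CD49b+ array is deeper than every CD25+ array in 32 of the 49 rows, Kif15 is blue in both subsets, and Smc4 is blue in CD49b+ cells.

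All 49 genes passed the filter on dim genes (at least 2 arrays brighter than the 50th percentile of that array), and 11037 genes in all were tested. The filter read the same arrays: 14 of the 49 had no CD4+ array of either group above its array's median. These were Anln, Cenpk, Kif11, Kif20a, Kif22, Kif23, Kif2c, Melk, Ncapg, Ndc80, Nek2, Pbk, Tpx2 and Ttk. They passed through the sorted subsets alone, so that some subset arrays had to lie above CD4+ arrays relative to the array medians. Their calls against CD4+ cells give no independent support, although they are kept in the counts below. Kif23 passed through 2 CD49b+ arrays alone, so its call against CD25+ cells gives no independent support either. In CD4+ cells of injected mice, neither array lay above its median for 18 genes, these 14 with Aurkb, Bub1, Cenpe and Ect2. Folds against such dim levels have no firm size. In the subsets, 48 of the 49 genes lay above the array median on every CD49b+ array and 47 on every CD25+ array.

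Against CD4+ cells of injected mice, CD49b+ cells had 46 of the 49 mitosis genes higher, 2 lower (Kif15 and Smc4) and Foxm1 not called, at an adjusted p under 0.05. Over all genes tested, 29.9% were called higher and 23.5% lower in this comparison. The median log2 difference of the 49 was 2.68, which is 6.42-fold, against 0.03 over all genes, and the range ran from -0.74 in Kif15 to 4.73 in Ube2c. At least 2-fold higher were 45 of them, against 7.05% of all genes tested. With arrays centred on their medians, the median over all genes became 0.22, the share of higher among all calls became 78.3%, against 56% as deposited, and 46 mitosis genes were still higher. In 46 of the 49 every CD49b+ array lay above both CD4+ arrays, against 37.3% of all genes tested.

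CD25+ cells had 41 of the 49 genes higher than the same CD4+ arrays, and Kif15 lower, while 20.8% of all genes tested were called higher and 17.8% lower. The median log2 difference was 1.61, or 3.05-fold, against 0.02 over all genes, with a range from -0.69 in Kif15 to 3.45 in Ube2c. At least 2-fold higher were 39 of them (5.08% of all genes tested), and in 46 every CD25+ array lay above both CD4+ arrays (31.0%). Foxm1, Bub3, Cenpf, Kif23, Kif2c, Racgap1 and Ttk were not called. With the replicate number as a block, 44 genes were higher (24.0% of all genes tested). Cenpf (adjusted p = 0.0273), Racgap1 (0.0262) and Ttk (0.0388) were added, although the numbers were taken to pair the subset arrays and not the CD4+ arrays. Deviations of same-numbered CD25+ and CD4+ arrays of injected mice correlated at 0.245 and 0.531, so that this choice is not clear-cut. With arrays centred on their medians the median over all genes was 0.18, and 78.6% of all calls were higher, against 53.9% as deposited. Both comparisons used the same 2 CD4+ arrays, so the 40 genes called higher in both subsets (15.5% of all genes tested) do not rest on independent controls. Of these, 34 were also higher in CD49b+ than in CD25+ cells (5.14% of all genes tested). Without CD4+ array 1 of injected mice the calls of Aurka, Bub1b, Cenpa and Kif11 were lost, and without array 2 those of Cenpa, Kif11 and Spc25. Kif11 was also not called without CD25+ array 2 or 3.

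**Figure D2:**
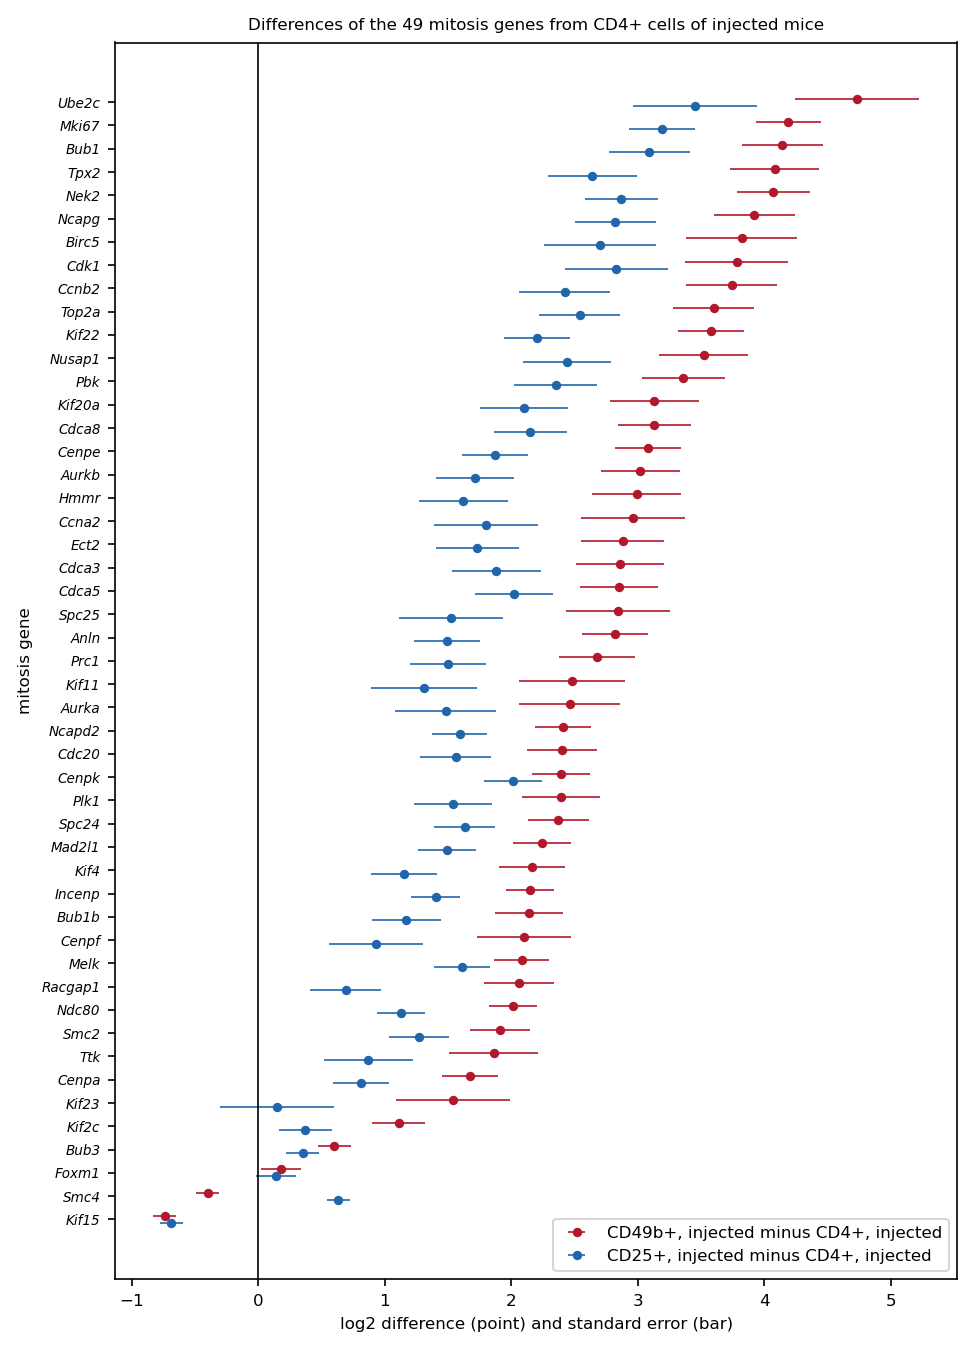
Log2 differences of the 49 genes from CD4+ cells of injected mice, in CD49b+ cells (red) and CD25+ cells (blue), with standard errors as bars and genes ordered by the first. Points run from -0.74 to 4.73 in CD49b+ cells and from -0.69 to 3.45 in CD25+ cells, with Kif15 left of 0 in both and Smc4 on opposite sides.

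Cdk1, the kinase that starts mitosis, had levels of 8.21, 8.89 and 9.26 in CD49b+ cells, 7.02, 8.09 and 8.42 in CD25+ cells, 4.66 and 5.36 in CD4+ cells of injected mice, and 5.85 and 6.10 in those of naive mice. Every subset array lay above every CD4+ array, and the lowest CD49b+ array fell within the CD25+ range. The log2 difference from CD4+ cells of injected mice was 3.78 (SE 0.41, 13.7-fold, adjusted p = 6.39e-05) in CD49b+ and 2.83 (SE 0.41, 7.11-fold, adjusted p = 0.0006) in CD25+ cells. Ccnb2, which encodes cyclin B2, had levels of 8.42, 9.07 and 9.33 in CD49b+ cells, 6.92, 7.76 and 8.19 in CD25+ cells and 4.93 and 5.46 in CD4+ cells of injected mice. Here the CD49b+ arrays all lay above the CD25+ arrays, with no overlap between any of these groups. It was 13.4-fold higher in CD49b+ cells (adjusted p = 3.11e-05) and 5.37-fold in CD25+ cells (adjusted p = 0.000712). Ccna2, encoding cyclin A2, was higher by 2.96 and 1.80 on the log2 scale.

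Foxm1, a transcription factor of late cell cycle genes, stood apart from its class. Its levels were 5.65, 5.76 and 6.12 in CD49b+ cells, 5.59, 5.79 and 6.03 in CD25+ cells, 5.74 and 5.59 in CD4+ cells of injected mice, and 5.64 and 5.69 in those of naive mice. The groups overlapped, and the log2 differences of 0.18 (adjusted p = 0.355) and 0.14 (adjusted p = 0.503) did not pass the test. Another probe set for Foxm1 gave 5.36, 5.53 and 5.70 in CD49b+, 5.31, 5.26 and 5.35 in CD25+ and 4.76 and 4.84 in CD4+ cells of injected mice. That one was called higher by 0.73 in CD49b+ (adjusted p = 0.000427) and by 0.50 in CD25+ cells (adjusted p = 0.00479, over all probe sets), so the readout of Foxm1 depends on the probe set.

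All 5 mitotic kinases (Aurka, Plk1, Nek2, Melk and Pbk) were higher in both subsets, by 2.08 to 4.07 on the log2 scale in CD49b+ and by 1.48 to 2.87 in CD25+ cells. Nek2, which separates the centrosomes, had levels of 7.41, 7.92 and 8.18 in CD49b+ cells, 6.04, 6.83 and 7.05 in CD25+ cells, and 3.80 and 3.75 in CD4+ cells of injected mice. The groups did not overlap, and the differences were 4.07 (SE 0.29, adjusted p = 4.37e-06) and 2.87 (SE 0.29, adjusted p = 6.38e-05), against a dim CD4+ level. Another probe set for Nek2 was 0.81 higher in CD49b+ cells (adjusted p = 0.0124) and differed by 0.11 in CD25+ cells, which was not called (adjusted p = 0.735). Pbk, also called T-LAK cell-originated protein kinase, read 7.34, 7.46 and 8.27 in CD49b+, 6.06, 6.79 and 7.22 in CD25+ and 4.22 and 4.45 in CD4+ cells of injected mice. It was 10.2-fold and 5.12-fold higher in the subsets, again with no overlap.

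The genes that work with the APC/C, the ubiquitin ligase of mitosis, included the largest difference of the 49. Ube2c, the enzyme that hands ubiquitin to that ligase, had levels of 8.96, 9.92 and 10.12 in CD49b+ cells, 7.34, 8.69 and 9.15 in CD25+ cells, 4.71 and 5.18 in CD4+ cells of injected mice, and 5.47 and 6 in those of naive mice. CD49b+ array 1 lay within the CD25+ range, and the subsets lay above all CD4+ arrays. The differences from injected CD4+ cells were 4.73 (SE 0.49, 26.5-fold, adjusted p = 4.86e-05) and 3.45 (SE 0.49, 10.9-fold, adjusted p = 0.000546). Cdca3, which helps trigger entry into mitosis, read 7.46, 8.26 and 8.39 in CD49b+, 6.36, 7.31 and 7.52 in CD25+ and 5.02 and 5.34 in CD4+ cells of injected mice. It was 7.25-fold and 3.69-fold higher, and Cdc20, the APC/C activator that the checkpoint restrains, was 5.27-fold and 2.95-fold higher.

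The spindle checkpoint genes were all higher in CD49b+ cells, and 3 of 5 were called in CD25+ cells. Bub1, a checkpoint kinase at the kinetochore, had levels of 7.99, 8.33 and 8.57 in CD49b+ cells, 6.49, 7.43 and 7.83 in CD25+ cells and 4.19 and 4.13 in CD4+ cells of injected mice. With no overlap, it was 17.6-fold higher in CD49b+ (log2 difference 4.14, SE 0.32, adjusted p = 8.31e-06) and 8.51-fold higher in CD25+ cells (adjusted p = 7.98e-05). Mad2l1, the inhibitor of Cdc20, was bright everywhere: 9.05, 9.55 and 9.65 in CD49b+, 8.23, 8.88 and 8.89 in CD25+, and 7.24 and 7.11 in CD4+ cells of injected mice. It was 4.72-fold and 2.82-fold higher. Bub3, a checkpoint partner also bright in CD4+ cells (9.65 and 9.39 in injected mice), read 9.94, 10.12 and 10.31 in CD49b+ cells and was 1.51-fold higher there (adjusted p = 0.00408). Its difference of 0.35 in CD25+ cells was not called (adjusted p = 0.0592), nor was that of Ttk, the kinase that starts checkpoint signalling (0.87, adjusted p = 0.0766).

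The chromosomal passenger complex corrects faulty attachments and joins in cytokinesis, and its kinase Aurkb and partners Birc5, Incenp and Cdca8 were higher in both subsets. Birc5, or survivin, had levels of 9.12, 9.77 and 9.90 in CD49b+ cells, 7.67, 8.76 and 8.98 in CD25+ cells, 5.23 and 6.31 in CD4+ cells of injected mice, and 6.40 and 7.17 in those of naive mice. The CD4+ arrays spread widely, but every subset array lay above them, and the differences were 3.82 (SE 0.44, adjusted p = 9.23e-05) and 2.70 (SE 0.44, adjusted p = 0.00119). Cdca8, or borealin, read 7.90, 8.46 and 8.58 in CD49b+, 6.72, 7.58 and 7.70 in CD25+, and 4.96 and 5.40 in CD4+ cells of injected mice. It was 8.77-fold and 4.45-fold higher.

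All 7 measured centromere and kinetochore genes were higher in CD49b+ cells, and 6 in CD25+ cells. Cenpe, a kinetochore motor that carries chromosomes to the spindle equator, had levels of 7.45, 7.71 and 8.02 in CD49b+ cells, 5.93, 6.67 and 6.97 in CD25+ cells, and 4.66 and 4.64 in CD4+ cells of injected mice. The groups did not overlap, and it was 8.44-fold (adjusted p = 1.38e-05) and 3.67-fold (adjusted p = 0.000478) higher. Another Cenpe probe set was 2.58 higher in CD49b+ cells (adjusted p = 0.0194, over all probe sets). It differed by 1.53 in CD25+ cells, which was not called (adjusted p = 0.148). Spc25, of the Ndc80 complex that grips microtubules, read 7.20, 7.76 and 8.36 in CD49b+, 5.65, 6.60 and 7.09 in CD25+, and 5.08 and 4.77 in CD4+ cells of injected mice. It was 7.17-fold higher in CD49b+ and 2.86-fold in CD25+ cells, where the call was lost without CD4+ array 2 (adjusted p = 0.0899). Cenpf, a large outer kinetochore protein, was 4.28-fold higher in CD49b+ cells, and its difference of 0.93 in CD25+ cells was not called (adjusted p = 0.0714).

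Among the 7 kinesins, motor proteins of the spindle, 6 were higher in CD49b+ and 4 in CD25+ cells, and Kif15 was lower in both. Kif22, which binds chromosome arms, had levels of 7.41, 7.80 and 7.98 in CD49b+ cells, 5.84, 6.39 and 6.81 in CD25+ cells, and 4.03 and 4.28 in CD4+ cells of injected mice. Kif20a, a motor of cytokinesis, read 6.62, 7.29 and 7.47 in CD49b+, 5.31, 6.43 and 6.55 in CD25+, and 3.90 and 4.10 in CD4+ cells of injected mice. Neither gene overlapped between subset and CD4+ arrays, with differences of 3.58 (SE 0.26) and 2.20 (SE 0.26) for Kif22, and 3.13 (SE 0.35) and 2.10 (SE 0.35) for Kif20a.

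Kif15, a motor that helps hold the spindle poles apart, ran the other way. Its levels were 4.96, 5.09 and 4.96 in CD49b+ cells, 4.96, 5.07 and 5.14 in CD25+ cells, 5.82 and 5.67 in CD4+ cells of injected mice, and 5.73 and 5.78 in those of naive mice. Every subset array lay below every CD4+ array. The differences were -0.74 (SE 0.09, adjusted p = 0.000118) in CD49b+ and -0.69 (SE 0.09, adjusted p = 0.000305) in CD25+ cells. Kif15 had only this probe set, not far above the array medians of 4.61 to 4.81, and a filter at the 70th percentile removed it from the test.

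Spindle assembly and bundling proteins (Tpx2, Hmmr, Nusap1 and Prc1) were higher in both subsets in all 4 cases. Tpx2, which activates Aurka on the spindle, had levels of 7.12, 7.53 and 8.08 in CD49b+ cells, 5.38, 6.31 and 6.71 in CD25+ cells, and 3.47 and 3.52 in CD4+ cells of injected mice. Nusap1, a microtubule bundler, read 8.5, 9.01 and 9.44 in CD49b+, 7.24, 8 and 8.48 in CD25+, and 5.34 and 5.58 in CD4+ cells of injected mice. Both lay clear of the CD4+ arrays, with 16.9-fold and 6.23-fold differences for Tpx2 and 11.5-fold and 5.44-fold for Nusap1.

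The cytokinesis genes Anln, Ect2 and Racgap1 were higher in CD49b+ cells. Anln, the scaffold of the cleavage furrow, had levels of 6.5, 6.30 and 7.21 in CD49b+ cells, 5, 5.33 and 5.70 in CD25+ cells, and 3.86 and 3.85 in CD4+ cells of injected mice. Ect2, which switches on RhoA at the furrow, read 7.04, 7.55 and 8.21 in CD49b+, 5.91, 6.57 and 6.87 in CD25+, and 4.72 in both CD4+ arrays of injected mice. No groups overlapped, and the folds were 7.05 and 2.81 for Anln and 7.38 and 3.31 for Ect2.

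Racgap1 and the kinesin Kif23 together form centralspindlin, which positions the furrow. Racgap1 had levels of 7.61, 8.15 and 8.32 in CD49b+ cells, 6.06, 6.85 and 7.05 in CD25+ cells, and 5.88 and 6.05 in CD4+ cells of injected mice. Kif23 read 4.45, 5.64 and 6.46 in CD49b+, 3.89, 3.99 and 4.47 in CD25+, and 4.06 and 3.88 in CD4+ cells of injected mice. The CD25+ and CD4+ arrays overlapped for Kif23, and for Racgap1 the lowest CD25+ array lay just above the CD4+ arrays. Racgap1 was 4.18-fold higher in CD49b+ cells (adjusted p = 0.000227), and its difference of 0.69 in CD25+ cells was not called (adjusted p = 0.0748). Another Racgap1 probe set was called 1.22 higher in CD25+ cells (adjusted p = 0.00388). Kif23 was 2.91-fold higher in CD49b+ cells (adjusted p = 0.0158, up to 0.0768 without either CD4+ array of injected mice) and differed by 0.15 in CD25+ cells, which was not called (adjusted p = 0.82).

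Of the genes of chromosome structure, Mki67, whose protein coats mitotic chromosomes and is the Ki-67 proliferation antigen, had levels of 10.25, 10.44 and 10.82 in CD49b+ cells, 9.07, 9.49 and 9.95 in CD25+ cells, 6.15 and 6.48 in CD4+ cells of injected mice, and 7.18 and 7.62 in those of naive mice. The 4 groups did not overlap. The differences from CD4+ cells of injected mice were 4.19 (SE 0.26, 18.3-fold, adjusted p = 1.68e-06) and 3.19 (SE 0.26, 9.11-fold, adjusted p = 1.6e-05). Top2a, the topoisomerase that untangles sister chromatids, read 9.61, 9.93 and 10.34 in CD49b+, 8.26, 8.99 and 9.45 in CD25+, 6.16 and 6.57 in CD4+ cells of injected mice, and 7.10 and 7.5 in those of naive mice. It too was separate in all groups, 12.1-fold and 5.81-fold higher in the subsets. Another Top2a probe set was 0.83 higher in CD49b+ cells (adjusted p = 0.000324, over all probe sets). It differed by 0.13 in CD25+ cells, which was not called (adjusted p = 0.406).

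Condensin coils chromosomes for division, and its subunits did not move alike. Ncapg, of condensin I, had levels of 7.39, 7.77 and 8.25 in CD49b+ cells, 6.03, 6.87 and 7.20 in CD25+ cells, and 3.74 and 4.02 in CD4+ cells of injected mice, a 15.2-fold and a 7.06-fold difference. Ncapd2, another subunit of that complex, was 5.31-fold and 3.02-fold higher, and the ATPase Smc2 was 3.75-fold and 2.42-fold higher. Its other probe sets differed by 2.1, 0.49 and 1.46 in CD49b+ cells (adjusted p = 0.0385, 0.377 and 0.033, over all probe sets). In CD25+ cells they differed by 1.59, 0.1 and 0.87, none of them called (adjusted p = 0.121, 0.879 and 0.195). The call of Smc2 in CD25+ cells was lost with averaged probe sets and with the most variable probe set. Another Ncapg probe set was 0.92 higher in CD49b+ cells (adjusted p = 0.0277, over all probe sets). It differed by 0.15 in CD25+ cells, which was not called (adjusted p = 0.729). Smc4, the ATPase that pairs with Smc2, was bright in all groups, with levels of 10.84, 10.79 and 11 in CD49b+ cells, 11.95, 11.91 and 11.85 in CD25+ cells, 11.31 and 11.24 in CD4+ cells of injected mice, and 11.18 and 11.21 in those of naive mice. Every CD49b+ array lay below, and every CD25+ array above, all 4 CD4+ arrays. Smc4 was lower in CD49b+ cells, with a log2 difference of -0.40 (SE 0.09, adjusted p = 0.00339), a call lost when arrays were centred on their medians (-0.21), when the probe sets of a gene were averaged (-0.85) and when the most variable probe set was used (-1.27). In CD25+ cells it was higher by 0.63 (SE 0.09, adjusted p = 0.000395), a call lost with the averaged (0.44) and the most variable (0.10) probe sets.

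**Figure D3:**
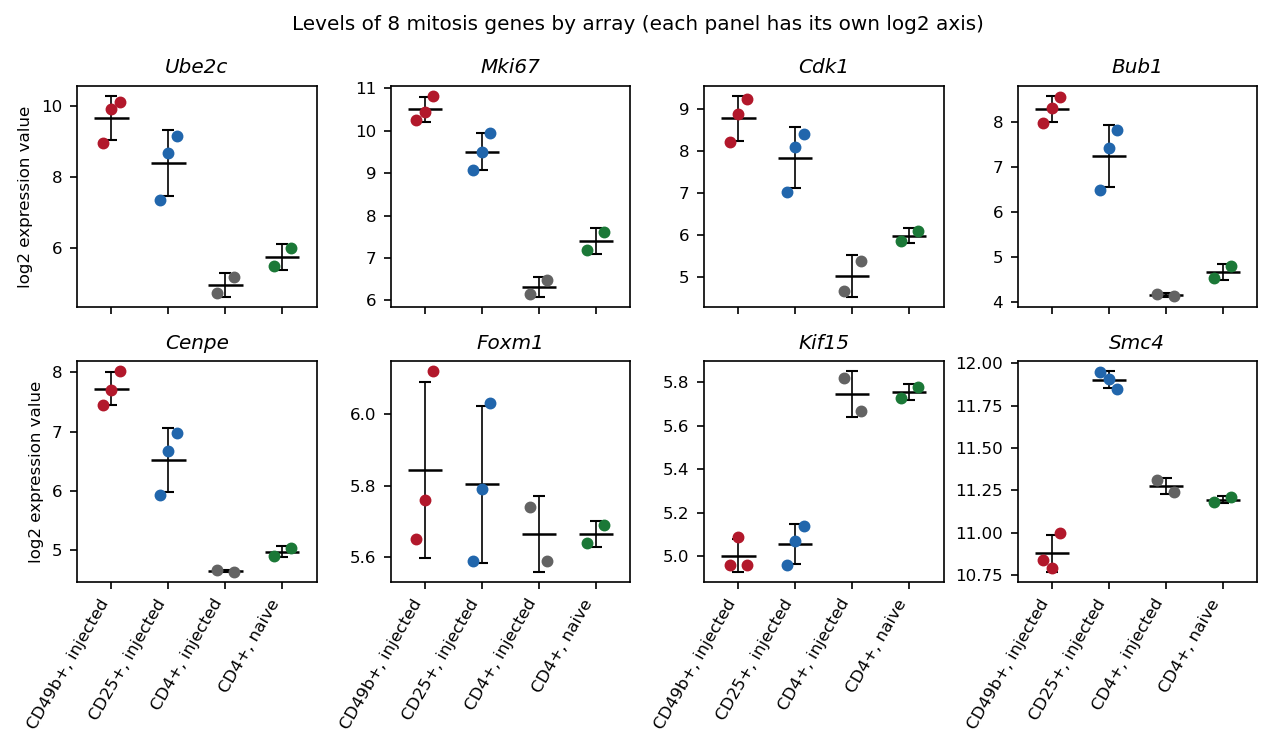
Log2 levels of 8 mitosis genes on each array, with group means as horizontal lines and standard deviations as bars, CD49b+ cells at the left and CD4+ cells of naive mice at the right of each panel. Ube2c, Mki67, Cdk1, Bub1 and Cenpe step down from CD49b+ to CD25+ to CD4+ cells, Foxm1 overlaps across groups, Kif15 is lower in both subsets, and Smc4 is lowest in CD49b+ and highest in CD25+ cells.

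The sorted subsets also differed from each other. In CD49b+ cells 39 of the 49 genes were higher than in CD25+ cells and Smc4 was lower, while 17.5% of all genes tested were called higher and 12.4% lower. The median log2 difference was 1.00, a 2-fold difference, against 0.03 over all genes, and 24 genes were called and at least 2-fold higher (2.51% of all genes tested). Tpx2 had the highest difference at 1.44 (SE 0.32, adjusted p = 0.00712), ahead of Kif23 at 1.40 (SE 0.40), Kif22 at 1.38 (SE 0.23), and Hmmr and Racgap1 at 1.37. The order among these 5 is within their standard errors. Kif23 passed the filter on dim genes through CD49b+ arrays alone, so its call here gives no independent support. Not called were Aurka, Birc5, Bub3, Cdk1, Cenpk, Foxm1, Kif15, Melk and Ube2c. In 32 of the 49 genes every CD49b+ array lay above every CD25+ array, against 24.3% of all genes tested.

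This count leaned on single arrays. It was 21 without CD49b+ array 2, 17 without CD49b+ array 3, 19 without CD25+ array 1, and 25 when only the 6 subset arrays were fitted. Over all 11037 genes tested, 1640, 1557, 1390 and 1618 were called higher in those fits, against 1926 in the main fit. The median difference of the mitosis genes nonetheless stayed between 0.73 and 1.24 whichever array was left out. Called whichever of the 6 subset arrays was left out were 16 genes, among them Mki67 (2-fold, adjusted p = 0.00857), Ccnb2 (2.50-fold, adjusted p = 0.0127), Cenpe (2.30-fold, adjusted p = 0.00378), Aurkb (2.48-fold, adjusted p = 0.00626), Anln (2.51-fold, adjusted p = 0.00198) and Racgap1 (2.59-fold, adjusted p = 0.00242). The call of Cenpe was lost with averaged probe sets and with the most variable probe set. Its other probe set differed by 1.05, which was not called (adjusted p = 0.302, over all probe sets). The call of Kif23 was lost without CD49b+ array 2 or 3 or CD25+ array 1 or 2 (highest adjusted p = 0.0875). Smc4 kept its call of -1.03 (SE 0.08, adjusted p = 9.67e-06) whichever of the 6 was left out, and lost it with the most variable probe set.

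Arrays of the subsets that share a replicate number deviated together from their group means, although only weakly for number 1 (correlation 0.158). With the replicate number as a block, 45 genes were higher in CD49b+ than in CD25+ cells (21.3% of all genes tested) and Smc4 was lower (15.2%). The added calls were Aurka (adjusted p = 0.00402), Birc5 (9.52e-05), Cdk1 (0.000663), Cenpk (0.0253), Melk (0.00935) and Ube2c (0.000481). Within the arrays numbered 1, 2 and 3, the CD49b+ array was above the CD25+ array in 48, 47 and 47 of the 49 genes, against 62.3%, 46.7% and 53.9% of all genes tested. In 46 genes this held for all 3 numbers (35.5% of all genes tested), and the median difference was 1.14, 0.91 and 0.97 in turn. Smc4 was lower in CD49b+ cells at each number, with differences of -1.11, -1.12 and -0.85.

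**Figure D4:**
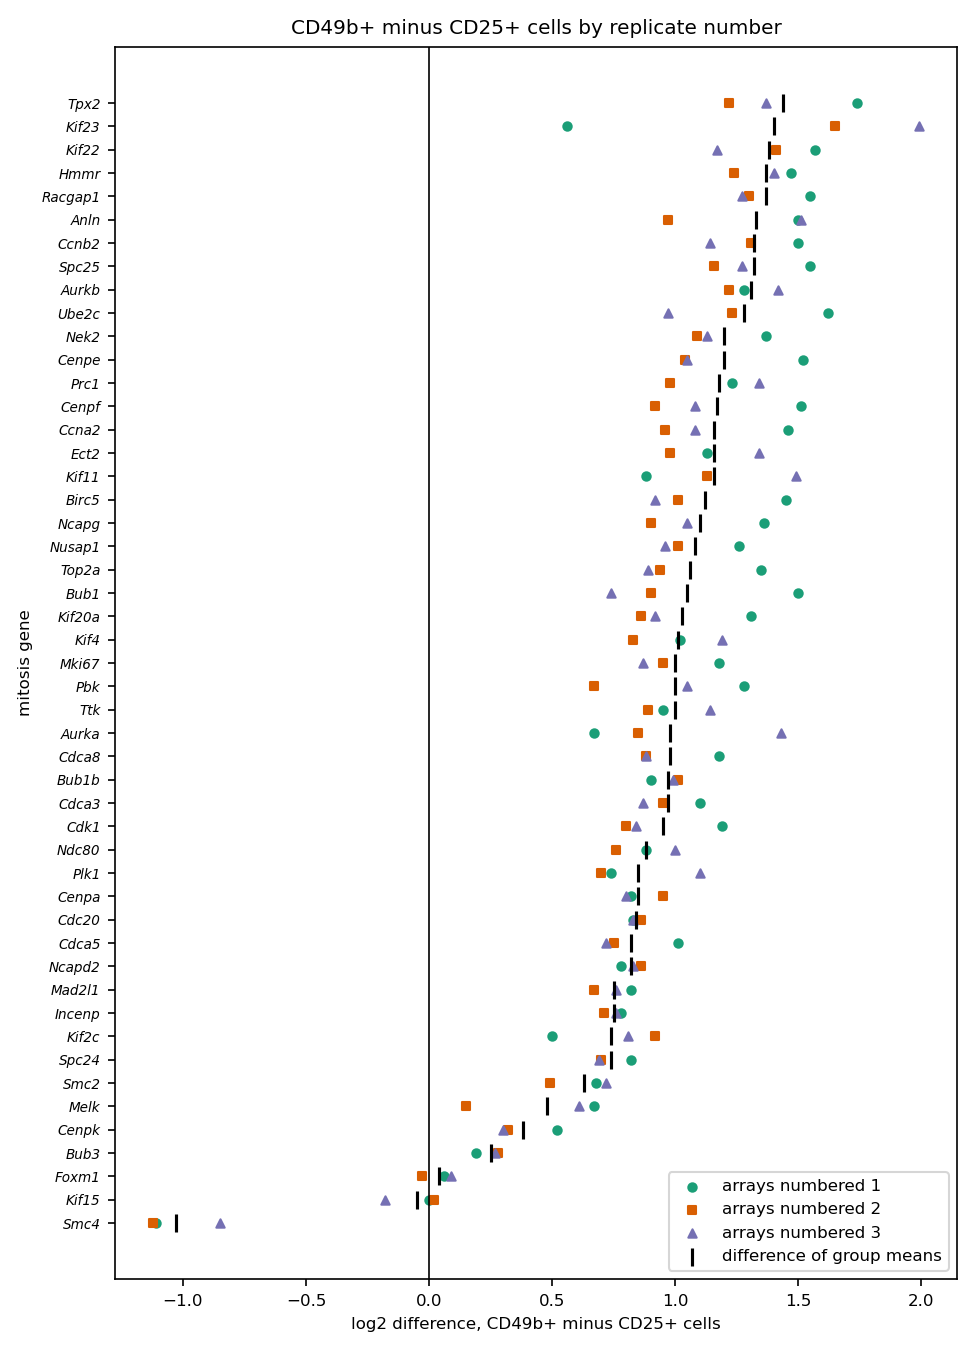
Log2 difference of each mitosis gene between the CD49b+ and the CD25+ array of the same replicate number (coloured points) and between the group means (black ticks), ordered by those ticks. Nearly all points lie right of 0, with medians of 1.14, 0.91 and 0.97 for arrays 1, 2 and 3, and Smc4 alone lies left of 0 at all 3.

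Within the subsets the genes also moved together from array to array. CD49b+ array 1 was the lowest of its group in 46 of the 49 genes (25.4% of all genes tested) and array 3 the highest in 46 (29.7%). CD25+ array 1 was the lowest in 48 (44.4% of all genes tested) and array 3 the highest in 44 (29.2%). The poly-A control transcripts, which are added to the RNA before labelling, averaged 6.26, 6.04 and 8.41 on the CD49b+ arrays and 6.57, 6.72 and 8.23 on the CD25+ arrays, so that arrays 3 stood apart there too. Their part in the order of the arrays was not tested. Without both subset arrays numbered 3, 33 genes were higher in CD49b+ than in CD25+ cells, and without both numbered 1, 39 were. Over all 11037 genes tested, 1383 and 1225 were called higher in these fits, in turn.

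CD4+ cells of injected and of naive mice had no mitosis gene called different. By the limma test 0 of 49 were called in either direction, against 0.0272% of all genes tested higher and 1.36% lower. At an unadjusted p under 0.05, 3 were lower in injected mice (9.92% of all genes tested) and 0 higher (2.45%). The values nonetheless leaned one way: the difference was negative in 44 of the 49 genes (57.8% of all genes tested), with a median of -0.24, against -0.03 over all genes. Both arrays of injected mice lay below both of naive mice in 33 genes (30.0% of all genes tested) and above in 1, Smc4 (18.6%). Mki67 had 6.15 and 6.48 in injected and 7.18 and 7.62 in naive mice, the greatest difference at -1.08 (SE 0.28, adjusted p = 0.114). Birc5 (-1.02), Cdk1 (-0.96), Top2a (-0.94) and Ccnb2 (-0.91) followed, with adjusted p-values of 0.442, 0.437, 0.297 and 0.392. Kif15, Foxm1 and Smc4 differed by -0.01, 0.00 and 0.08, none of them called. The mean level of 12 myeloid and dendritic cell markers was 5.25 to 5.34 in injected and 5.77 to 5.95 in naive mice, and its part in these differences was not tested.

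Other genes of the same processes gave a setting for these values. Of 73 further mitosis genes tested, 58 were higher and 3 lower in CD49b+ than in CD4+ cells of injected mice, with a median of 1.40. In CD25+ cells 46 were higher and 1 lower, with a median of 0.76. Over all genes tested, 29.9% were higher and 23.5% lower in CD49b+ cells, and 20.8% and 17.8% in CD25+ cells. The lower genes in CD49b+ cells were Hjurp (-1.31), the chaperone that loads the centromere histone Cenpa, Cenpq (-0.34), of the inner kinetochore, and Ckap4 (-0.33), a membrane protein of the endoplasmic reticulum. In CD25+ cells it was Hjurp (-1.35). Cenpa itself was called higher in both subsets, but the call in CD25+ cells was lost without either CD4+ array of injected mice. It was also lost with averaged probe sets. Another Cenpa probe set differed by -0.19 in CD49b+ and -0.42 in CD25+ cells. Neither was called (adjusted p = 0.46 and 0.147, over all probe sets). Cep55, of the final cut between daughter cells, was 15.9-fold and 6.84-fold higher. Depdc1a was 15-fold higher in CD49b+ cells, and Arhgap11a, a regulator of RhoA, was 11.9-fold and 5.97-fold higher. Their CD4+ means in injected mice were 3.68 and 4.55, under the array medians of 4.80 and 4.81, so these folds have no firm size. Between the subsets, 42 of the 73 were higher and 0 lower in CD49b+ cells, against 17.5% and 12.4% of all genes tested. Cdc25b, the phosphatase that activates Cdk1, was 3.68-fold higher there (adjusted p = 6.18e-05).

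DNA replication genes, used in the preceding S phase, were also higher in both subsets. Against CD4+ cells of injected mice, 33 of 44 were higher and 1 lower in CD49b+ cells (median 0.95). In CD25+ cells 29 were higher and 1 lower (median 0.75). The shares over all genes tested were 29.9% and 23.5% in CD49b+ and 20.8% and 17.8% in CD25+ cells. Rrm2, a subunit of ribonucleotide reductase, was 12.8-fold and 7.29-fold higher, and Uhrf1, which keeps DNA methylation at the fork, was 9.95-fold and 7.59-fold higher. The lower gene was Pole2, a subunit of DNA polymerase epsilon, with differences of -0.66 in CD49b+ and -1.27 in CD25+ cells. In CD49b+ against CD25+ cells 8 of the 44 were higher (16 with the replicate number as a block) and 0 lower, with a median of 0.18 and a highest difference of 0.81. The count of 8 is near the share over all genes tested, which was 17.5%, and 21.3% with the block. The mitosis genes had a median of 1.00 there. No test of the difference between the lists was made.

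Lists of regulators and partners were read beside the shares of all genes tested, which were 29.9% higher and 23.5% lower in CD49b+ and 20.8% and 17.8% in CD25+ cells. Of 14 DREAM, MuvB and E2F regulators, 8 were higher and 1 lower in CD49b+ and 6 and 1 in CD25+ cells. The lower ones were E2f5 (-0.72) in CD49b+ and E2f4 (-0.31) in CD25+ cells, E2F proteins of the repressive kind. E2f8, a repressor of cell cycle genes, was 8.96-fold and 4.25-fold higher than in CD4+ cells of injected mice, against a dim mean of 4.42 there. Rbl2, a pocket protein of the DREAM complex, was 2.93-fold and 2.33-fold higher. Of 13 APC/C subunits and activators, 8 and 6 were higher and 0 were lower in CD49b+ and CD25+ cells, with medians of 0.37 and 0.30. Fzr1, the activator used late in mitosis and in resting cells, was 2.45-fold and 1.52-fold higher. Of 9 cohesin subunits and loaders, which hold sister chromatids together, 2 were higher and 1 lower in CD49b+ cells and 0 were called in CD25+ cells, with medians of -0.09 and -0.07, so that no more of them were higher than among all genes tested. Wapl, which takes cohesin off chromosomes, was higher by 0.32 and the cohesin subunit Rad21 by 0.23, while Pds5a, a cohesin regulator, differed by -0.37. Between the subsets, E2f1, E2f2, E2f7 and E2f8 were higher in CD49b+ cells, by 0.57 to 1.10, and E2f5 was lower (-0.62). Of the APC/C genes, Anapc11, Anapc15 and Fzr1 were higher there, by 0.33 to 0.69, and of the cohesin genes Wapl, by 0.31. Higher there were thus 4 of the 14 regulators, 3 of the 13 APC/C genes and 1 of the 9 cohesin genes. Over all genes tested 17.5% were higher and 12.4% lower, so the APC/C and cohesin counts lay near that share. In CD4+ cells of injected against naive mice 0 genes of these 5 lists were called.

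**Figure D5:**
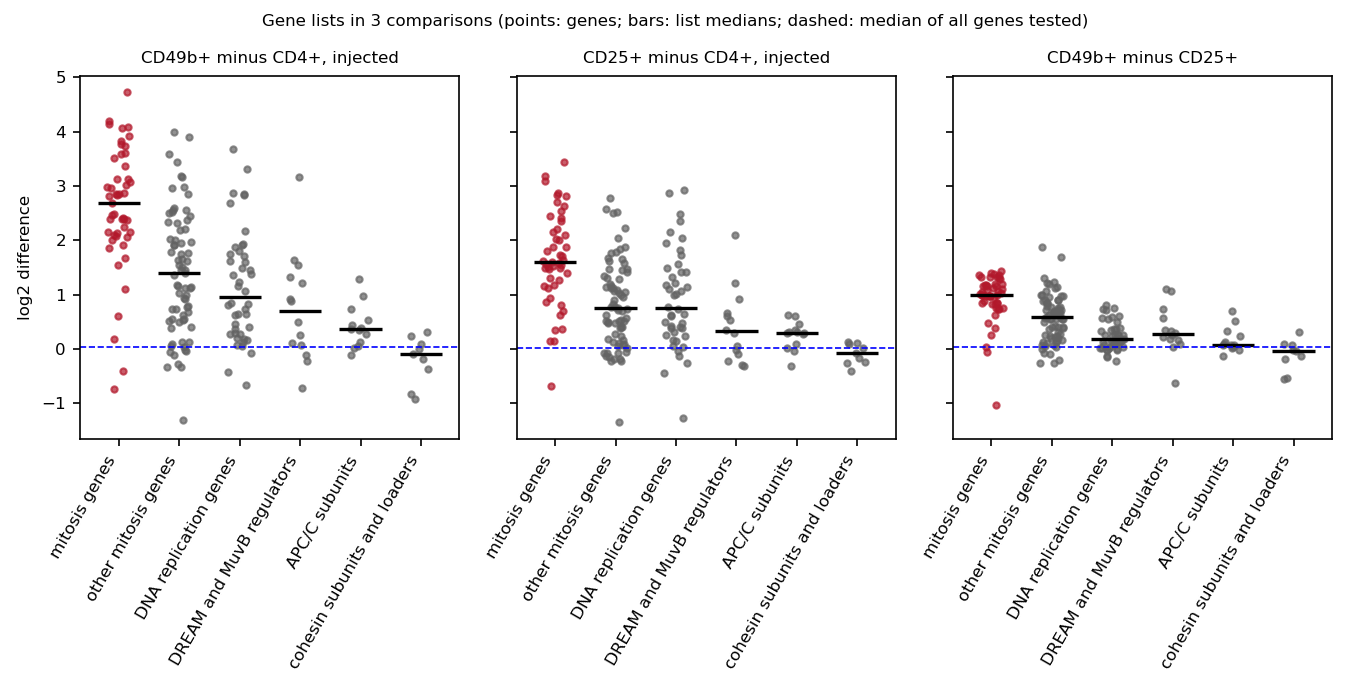
Log2 differences of single genes (points) by list in 3 comparisons, with list medians as bars and the median of all genes tested as a dashed line. Mitosis genes (red) have medians of 2.68, 1.61 and 1.00, DNA replication genes 0.95, 0.75 and 0.18, and cohesin genes lie about 0.

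T cell genes were bright on every array, with Cd3e at 9.20 to 9.72. Il2ra, the sort marker of the CD25+ cells, had 6.23 to 6.37 in CD49b+, 8.51 to 9.09 in CD25+ and 4.16 to 4.18 in CD4+ cells of injected mice, and Foxp3, the regulatory T cell factor, followed the same order with 6.26 to 6.58, 8.06 to 8.36 and 4.57 to 4.70. Itga2, which encodes CD49b, had 5.59 to 5.97 in CD49b+ cells and 5.80 and 5.85 in CD4+ cells of injected mice, a difference of -0.05 that was not called (adjusted p = 0.717). It was higher by 0.31 than in CD25+ cells (adjusted p = 0.0349).

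Markers of other cell types differed in both directions, and their lists are given as the mean level over the markers with a probe set, from the lowest to the highest array, in CD49b+ cells, CD25+ cells and CD4+ cells of injected mice. For 8 of 9 B cell markers it was 4.51 to 4.55, 4.72 to 4.85 and 4.66 to 4.72. Cd79b was higher in both subsets, by 0.96 and 1.53, Cd22 (-0.65) and Blk (-0.40) were lower in CD49b+ cells, and Ms4a1, Pax5, Ighm and Bank1 were too dim to test. For 5 of 6 plasma cell markers it was 6.86 to 7.36, 7.26 to 7.70 and 6.61 to 6.78. Prdm1 and Irf4, which effector T cells also express, were higher by 1.82 and 1.55 in CD49b+ and by 1.85 and 1.57 in CD25+ cells. Xbp1 was higher by 0.49 in CD25+ cells, while Jchain differed by -1.54 in CD49b+ and by -0.03 in CD25+ cells, neither called. Tnfrsf17 was too dim to test. For 7 of 8 natural killer cell markers it was 5.17 to 5.43, 4.89 to 4.95 and 4.84 to 4.87, with Gzma, a granzyme, higher by 3.97 and 1.48 and Ncr1 by 0.65 and 0.73. Prf1 (-1.10 and -1.11) and Eomes (-0.91 and -0.71) were lower in both subsets, and Klrk1 was higher by 0.53 in CD49b+ cells. The 12 myeloid and dendritic cell markers had 4.64 to 4.79, 4.98 to 5.19 and 5.25 to 5.34, with Tyrobp (-1.81 and -1.57), Itgax (-0.83 and -1.17), Flt3 (-0.94 and -0.83) and Adgre1 (-0.71 and -0.52) lower in both subsets. Cybb (-0.98) and Cd68 (-0.82) were lower in CD49b+ cells, and Fcer1g and Cybb were higher in CD25+ cells, by 1.90 and 0.60. For 6 of 9 erythroid markers it was 5.58 to 5.76, 5.80 to 5.99 and 5.77 to 5.94, and for 6 platelet markers 4.93 to 4.98, 4.59 to 4.85 and 4.86 to 5.02. Tfrc, also a gene of dividing T cells, differed by -0.49 and 0.62, and Itgb3 by 0.83 and -0.57, all of them called. Neutrophil markers (7) had 4.34 to 4.46, 4.33 to 4.42 and 4.46 to 4.51, with Ltf lower in CD49b+ cells (-0.30), and the 2 CD8 markers 4.38 to 4.59, 4.39 to 4.48 and 4.70 to 4.72. The part of such cells in the mitosis gene differences was not tested.

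Array quality differed between subsets and CD4+ cells. Array medians were 4.61 to 4.65 in the subsets and 4.79 to 4.81 in CD4+ cells, and the Gapdh 3′ minus 5′ difference, a sign of RNA length, was 0.23 to 0.69 in the subsets and -0.01 to 0.26 in CD4+ cells. Their part in the differences was not tested. Other probe sets gave a further reading of the genes: 25 in 21 of the mitosis genes were tested, and 20 were higher and 0 lower in CD49b+ than in CD4+ cells of injected mice, 12 and 0 in CD25+ cells, and 11 and 1 in CD49b+ than in CD25+ cells. Of the called genes with such a probe set, 17 of 20, 9 of 17 and 12 of 19 had another called the same way, in turn.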

How the data were processed

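The authors deposited log2 expression values of 45141 probe sets on 10 arrays, for which the submitters' processing notes name GCRMA and Expression Console 1.2.1 (Affymetrix). The sources used here do not say whether the arrays were normalized jointly. Negative selection on beads and flow sorting gave the cells, and 100 ng of RNA was labelled, per the labels. A gene was read from the probe set with the highest mean among those of a single symbol in the platform annotation (28898 of 45037 probe sets without the 104 controls, 17097 genes; 551 had several symbols and 15588 none here). Levels of different probe sets are not comparable. The 4 group means were fitted together with limma 3.58.1 (lmFit, eBayes) in R 4.3.3 on 11037 genes, with two-sided tests on 6 residual degrees of freedom. P-values were adjusted by Benjamini-Hochberg within each of 4 comparisons, and calls made at 0.05. The fit was tested on simulated data. Deviations of CD49b+ and CD25+ arrays of the same number correlated at 0.158, 0.366 and 0.641 over genes, so that those numbers were taken as pairs. Unlike numbers reached 0.135 (CD49b+ array 1 and CD25+ array 2). Same-numbered CD4+ arrays of injected mice correlated at 0.088 and 0.522 with CD49b+ and at 0.245 and 0.531 with CD25+ arrays. CD4+ array 1 reached 0.446 with CD49b+ array 3. Alternatives were other filters, quantile normalization, median centring, probe set choices, another eBayes prior, a 2-fold threshold, array weights, a replicate block, only the arrays compared, and each array left out. Array values are given for up to 2 members per role with the greatest range of group means, for 6 well-known members and for exceptions, and of each pathway list up to 4 called genes with the greatest change may be named; those of Bub3, Kif23 and Racgap1 were added after their values were seen. The members and lists were chosen with earlier results of these data known. The number of arrays limits the precision.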

Additional observations from a re-analysis of the deposited data

Results flagged for a closer look

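Smc4, the condensin ATPase, moved in opposite directions in the sorted subsets against the same CD4+ cells of injected mice. Its log2 difference was -0.40 in CD49b+ cells and 0.63 in CD25+ cells, and the test of the difference between the subsets gave -1.03 (adjusted p = 9.67e-06, limma over all genes), lower in each of the 3 CD49b+ arrays than in any CD25+ array. Its other probe sets read 8.79, 10.93 and 10.82, and 8.61, 10.09 and 10.10, in CD49b+ cells, against 12.05, 10.84 and 11.77, and 11.51, 10.46 and 11.23, in CD25+ cells. Those probe sets overlapped or spread more, with differences of -1.38 (adjusted p = 0.0869, over all probe sets) and -1.47 (adjusted p = 0.0241).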

How the results depend on the processing

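No median or called difference of a named mitosis gene changed sign under the alternatives run. Counts of genes higher than in injected CD4+ cells, in CD49b+ or CD25+ cells, stayed within 1.5 times of 46 and 41 under all alternatives. Leaving out each array in turn gave 45 to 46 higher and 2 lower (median 2.40 to 2.90) in CD49b+, and 37 to 44 higher and 1 lower (median 1.45 to 1.87) in CD25+ cells. In CD49b+ against CD25+ cells it gave 17 to 43 higher and 1 lower (median 0.73 to 1.24), and in injected against naive CD4+ cells 0 and 0 (median -0.33 to -0.18). Of genes lower in CD49b+ than in CD4+ cells, 1 of 2 was left with a stricter filter, median centring, averaged probe sets or the most variable probe set (chosen after seeing the data), and 0 at 2-fold. Lower in CD25+ cells were 0 with the stricter filter or at 2-fold. Higher in CD49b+ than in CD25+ cells were 25 with only the arrays compared and 24 at 2-fold, and lower 0 with the most variable probe set. In injected against naive CD4+ cells, array weights called 1 mitosis gene lower (Mki67), against 302 of all 11037 genes tested. The replicate block called 6 (Birc5, Ccnb2, Cdk1, Mki67, Nusap1 and Top2a) there (2.90% of all genes tested), although those numbers do not pair the samples. Same-numbered CD4+ arrays ran against each other (-0.209), and crossing them, chosen after seeing the data, called 2 of the 49 lower (Mki67 and Top2a). That is near the share over all genes tested, where 429 of 11037 were called lower. The causes were not tested, except that stricter filters and 2-fold thresholds test or admit fewer genes. In CD49b+ against CD25+ cells the block gave 45 mitosis genes higher, against 39 without it, and 16 DNA replication genes, against 8.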

Other observations

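Several second probe sets of mitosis genes were low on the same subset arrays. CD49b+ array 1 and CD25+ array 2 were the lowest of their groups for other probe sets of Cenpe (4.66, 7.61 and 7.23 in CD49b+ cells, and 5.58, 4.63 and 6.14 in CD25+ cells), of Smc2 (5.07, 7.28 and 7.67, and 6.40, 5.11 and 6.99) and of Smc4 (8.79, 10.93 and 10.82, and 12.05, 10.84 and 11.77). With the probe sets used for these genes, CD25+ array 2 was not the lowest of its group. CD49b+ array 1 was the lowest for Cenpe and Smc2 but not for Smc4. Smc2 read 8.93, 9.23 and 9.69 in CD49b+ and 8.25, 8.74 and 8.97 in CD25+ cells. These values were picked after the data were seen and were not tested.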
